A study of Mus musculus with 8 samples.

Results

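The mouse cytochrome P450 genes of families 1 to 4 were taken as every gene whose symbol is Cyp1, Cyp2, Cyp3 or Cyp4 followed directly by a letter, pseudogene symbols ending in -ps left out. The rule found 82 of the 56941 genes in the count table, in 22 subfamilies, and used no measured value. Of these 82 genes, 40 had enough counts to be tested, 28 had counts but too few, and 14 had no count in any library. The samples were jejunum, the middle stretch of the small intestine, from naive C3H/HeJ mice (C3H, 4 libraries, replicates 1, 3, 4 and 5) and naive C57BL/6 mice (B6, 4 libraries, replicates 2, 3, 4 and 5). The labels give an age of 6 to 8 weeks and at least 8 weeks of shared cages before tissue was taken, in both strains. They do not make clear which time the age refers to, so the age at sampling is uncertain. The sex of the mice is not given. No transgene and no treatment is named in the labels for either group. Poly(A) RNA was sequenced as bulk tissue, from 200 ng of RNA per library, and all 8 libraries belonged to batch 1. It is not stated whether the libraries stem from 8 mice, so the p-values reflect the spread among libraries, which may be technical. Each library held 37205896 to 58251332 counts.

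P450 enzymes are haem proteins of the endoplasmic reticulum that insert oxygen into drugs, plant compounds, steroids, bile acids and fatty acids, taking electrons from the reductase Por. Families 1 to 3 hold most of the drug-metabolising enzymes, which are induced through the receptors Ahr, PXR (gene Nr1i2) and CAR (gene Nr1i3), whereas family 4 and some of family 2 act mainly on fatty acids, arachidonic acid and leukotrienes. In the small intestine these enzymes sit in enterocytes and act on food compounds before they reach the liver.

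As a group, the 82 genes took a like share of the RNA in both strains, while single genes differed in either direction. They held 0.804% to 1.114% of all counts in C3H libraries and 0.808% to 1.004% in B6 libraries, and their summed level was 9412 ± 2309.6 CPM in C3H and 9263 ± 997 CPM in B6 (SD, n = 4 each). CPM here is the usual depth-scaled count, after TMM scaling of the library sizes. Of the 40 tested genes 19 passed an adjusted p of 0.05 (edgeR quasi-likelihood test, Benjamini-Hochberg adjusted over 18025 genes), which is 47.5% against 21.4% of all tested genes. In C3H, 11 were higher, beside 11.3% of all tested genes, and 8 were lower, beside 10.1%. At least 2-fold differences were found for 6 of the higher and 4 of the lower genes, where 7.86% of all tested genes passed both thresholds. In 19 of the 40 genes, the same 19 that passed, the values of the C3H and B6 libraries did not overlap, against 24.4% of all tested genes. The median log2 fold change of C3H over B6 was 0.19 over the 40 genes and 0.03 over all tested genes. Because the tissue was sequenced in bulk, a lower level in a strain may be fewer cells of a type or less RNA per cell. These cannot be told apart here. Reads of both strains were aligned to the same build, GRCm39, and the part of strain sequence differences in the counts was not tested.

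**Figure D1:**
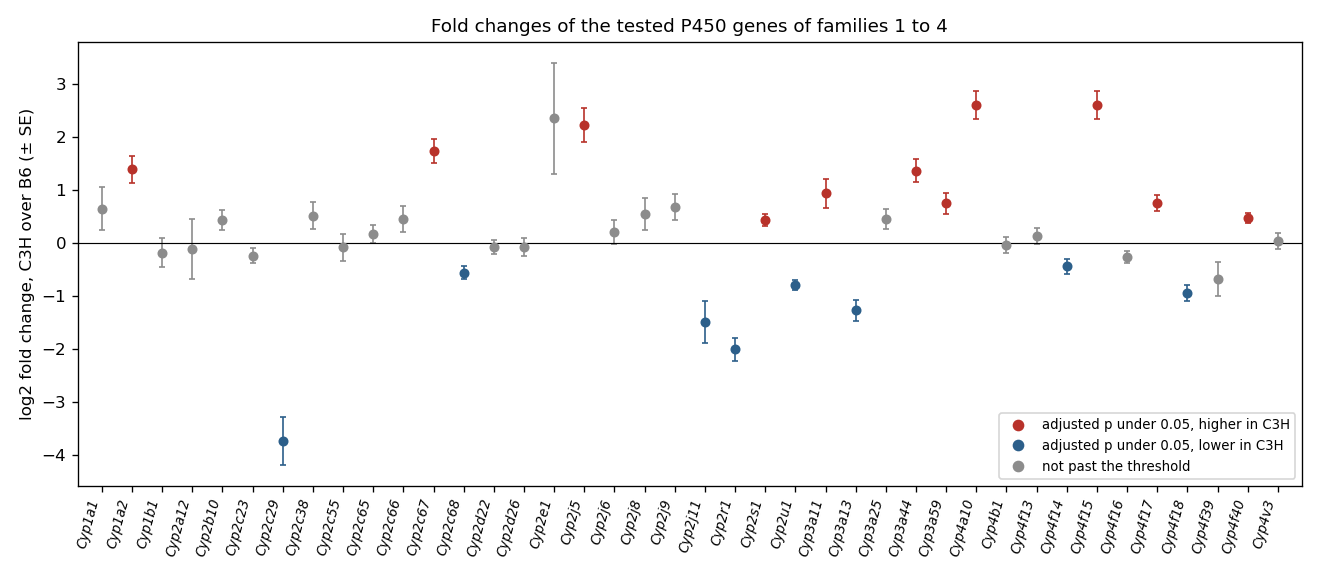
Log2 fold change of C3H over B6 (vertical axis) for the 40 tested P450 genes of families 1 to 4, with bars of 1 SE; red marks the 11 genes higher and blue the 8 genes lower in C3H at an adjusted p under 0.05, and grey the 21 that did not pass. Values run from -3.74 for Cyp2c29 to 2.61 for Cyp4a10 and Cyp4f15.

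The libraries of C3H differed among themselves. Library C3H 5 had the highest C3H value of 29 of the 40 genes and C3H 1 the lowest of 26, where 31.2% and 30.3% of all tested genes had theirs in these libraries. The summed level of 10 enterocyte markers ran the same way, at 39514, 46249, 53697 and 59997 CPM in C3H 1, 3, 4 and 5, against 49581 to 60312 CPM in the B6 libraries, and its part in the P450 values was not tested. Scaling the libraries to these enterocyte markers moved the median of all genes to 0.181 on the log2 scale, against 0.025 with TMM, and all 19 genes passed there too, in the same direction. The sum of 12 pancreatic markers was 55.4, 3321, 93.4 and 1504 CPM in C3H 1, 3, 4 and 5, against 31.3 to 297 CPM in the B6 libraries. Without the 4 libraries richest in pancreatic transcripts (C3H 3 and 5, B6 2 and 3), which leaves 2 libraries per strain, 14 of the P450 genes passed, 7 higher and 7 lower in C3H, and 12 of these were among the 19; 9.02% of all genes passed there. Of 9 hepatocyte markers, for the organ with the highest P450 content, 3 had no count in any library, and their sum was 2.26 to 3.35 CPM in C3H and 2.65 to 3.88 CPM in B6. Endothelial markers summed to 74.9 to 98.4 CPM in C3H and 59.0 to 66.4 CPM in B6. Of these markers Tek and Kdr passed (log2 1.54 ± 0.10 and 0.53 ± 0.10 SE). Pecam1, Cdh5 and Emcn overlapped between the strains and did not pass (log2 0.15, 0.02 and 0.19). Leukocyte markers summed to 105 to 112 CPM in C3H and 126 to 140.5 CPM in B6. Fibroblast, smooth muscle, crypt and erythroid marker sums overlapped between the strains. Markers of position along the small intestine did not all move one way: of 6 proximal markers Cybrd1 and Slc40a1 were higher in C3H (log2 2.22 ± 0.41 and 1.77 ± 0.35 SE), and of 5 tested distal markers Guca2a was higher (1.30 ± 0.13) and Slc51a and Slc51b were lower (-0.49 ± 0.14 and -1.08 ± 0.16). Their part in the P450 values was not tested.

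The Cyp3a subfamily, the main oxidases of drugs and steroids, held some of the most abundant P450 RNAs, and its leading genes moved in opposite directions. Cyp3a11, the principal Cyp3a enzyme of mouse liver and a target of PXR, stood at 1645, 1719, 2966 and 3354 CPM in C3H 1, 3, 4 and 5, against 841, 1318, 1261 and 1639 CPM in B6 2, 3, 4 and 5. Its 4 C3H values lay above the B6 values, but the lowest C3H library and the highest B6 library were nearly level. The log2 fold change was 0.94 ± 0.27 (SE; adjusted p = 0.0278, edgeR quasi-likelihood test). This call was lost when C3H 4, C3H 5, B6 2, B6 3 or B6 4 was left out, with an adjusted p of 0.0561 to 0.0748, and without the 4 pancreas-rich libraries (adjusted p = 0.307, edgeR, log2 0.66).

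Cyp3a13, a Cyp3a enzyme known for its expression in mouse intestine, moved the other way. It stood at 584, 719, 976 and 1076 CPM in C3H 1, 3, 4 and 5, against 1794, 1689.8, 2502 and 2083 CPM in B6 2, 3, 4 and 5. Every C3H value was below every B6 value, with a wide gap between them. The fold change was 2.41-fold lower in C3H (log2 -1.27 ± 0.20 SE, adjusted p = 0.0010, edgeR), and leaving out single libraries gave log2 values of -1.41 to -1.14. Corrected for annotated exon length, the ratio of Cyp3a11 to Cyp3a13 RNA was 1.39 to 1.81 in C3H and 0.272 to 0.457 in B6. Without this correction the count ratios were 2.39 to 3.12 in C3H and 0.469 to 0.787 in B6. By both measures each strain had a different gene of the pair on top in all 4 of its libraries. The lengths join all annotated exons of a gene, with 5093 bases for Cyp3a11, 2956 for Cyp3a13 and 2083 for Cyp3a25. A shorter true length of Cyp3a11 would raise its ratio and shares in both strains, so which gene leads in B6 depends on it. As a share of the P450 RNA of families 1 to 4, counted per exon length, Cyp3a13 held 8.58% ± 0.581 in C3H and 20.2% ± 2.60 in B6, and Cyp3a11 held 14.2% ± 2.13 in C3H and 7.28% ± 1.37 in B6 (SD, n = 4 each).

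Cyp3a44 and Cyp3a59, scarcer members of the cluster, were also higher in C3H. Cyp3a44 had 10.4, 11.2, 13.5 and 12.5 CPM in C3H libraries, against 6.91, 3.41, 3.10 and 5.05 CPM in B6 libraries, a 2.58-fold difference (log2 1.37 ± 0.22 SE, adjusted p = 0.00115, edgeR). Cyp3a59 had 17, 16.9, 28.0 and 31.4 CPM in C3H libraries, against 11.5, 13.6, 16.1 and 14.3 CPM in B6 libraries (log2 0.75 ± 0.20 SE, adjusted p = 0.0215, edgeR). The strains did not overlap for either gene, but for Cyp3a59 the lowest C3H and highest B6 values were close. The Cyp3a59 call was lost without C3H 4, C3H 5, B6 2 or B6 3 (adjusted p 0.0517 to 0.0636, edgeR) and without the 4 pancreas-rich libraries (adjusted p = 0.185). Cyp3a25, an abundant neighbour, averaged 763 ± 214 CPM in C3H and 557 ± 67.4 CPM in B6 and did not pass (log2 0.45 ± 0.19 SE, adjusted p = 0.112, edgeR). It passed without C3H 1 (adjusted p = 0.0456, edgeR), with library totals (0.0232) and under enterocyte marker scaling (0.00595). Its share of P450 RNA per exon length was 11.1% ± 1.20 in C3H and 7.90% ± 0.388 in B6 (SD, n = 4 each), with no overlap. Shares add up to a fixed total, so the lower Cyp3a13 share in C3H by itself raises those of other genes. Cyp2b10, which did not pass either, held 10.2% ± 0.443 in C3H and 7.37% ± 1.08 in B6, also with no overlap. Reads could be split between copies for some of the Cyp3a genes. Of the windows of 100 bases along annotated Cyp3a59 transcripts, 7.39% also occur in another gene. So do 6.79% for Cyp3a25, 5.37% for Cyp3a44 and 0.141% for Cyp3a11, whereas Cyp3a13 has 0 such windows.

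Summed over the 9 Cyp3a genes, these opposite changes left levels that overlapped between the strains. The sum was 2830.3, 3048, 4928 and 5426 CPM in C3H 1, 3, 4 and 5, against 3114, 3589.7, 4394 and 4333 CPM in B6 2, 3, 4 and 5, with a log2 difference of 0.07 ± 0.23 (SE). Along chromosome 5 the genes Cyp3a44, Cyp3a11, Cyp3a25 and Cyp3a59 lie next to each other within the family, while Cyp3a13 lies apart from them, on the other side of Cyp2w1.

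**Figure D2:**
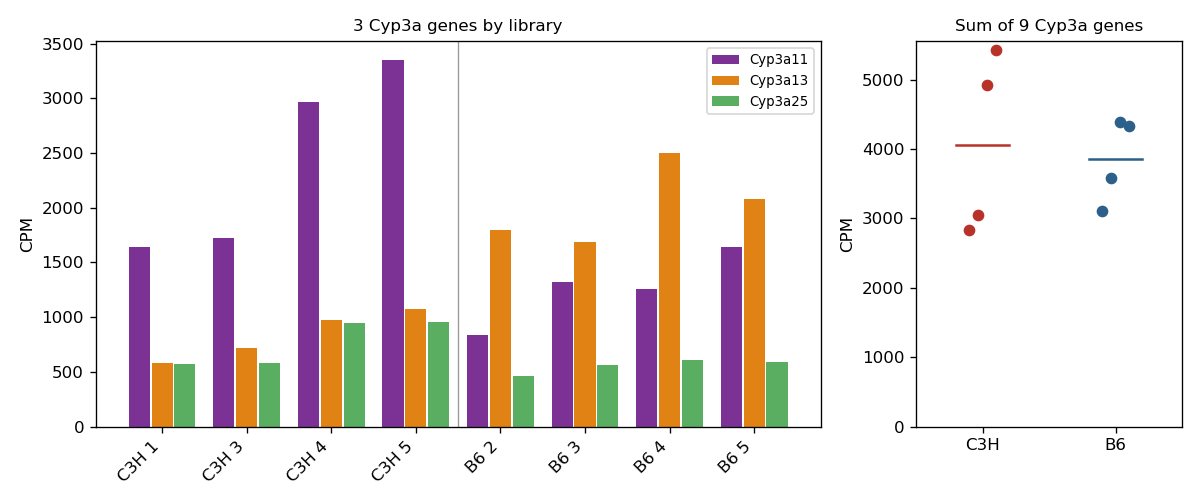
Left, level in CPM of Cyp3a11 (purple), Cyp3a13 (orange) and Cyp3a25 (green) in each library, the 4 C3H libraries left of the 4 B6 libraries; right, sum of the 9 Cyp3a genes per library in CPM, with the mean as a line. Cyp3a11 is higher and Cyp3a13 lower in every C3H library than in every B6 library, while the sums overlap, at 4058 ± 1311 CPM in C3H and 3857 ± 616 CPM in B6 (SD, n = 4 each).

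The start regions of these genes are shown because the pair of abundant genes moved in opposite directions and lies in separate places. They are RefSeq windows of build GRCm38.p6, 250 bases before to 50 bases after the start of the gene, read on the strand of the gene, and do not give positions on the build used for counting (GRCm39). Capitals mark AGGTCA, the hexamer bound by many nuclear receptors, or its reverse complement, and CAAAGTCCA, a sequence of the type bound by Hnf4 receptors. Cyp3a11 (chr5:145879805-145880104, minus strand), Cyp3a44 (chr5:145805825-145806124, minus strand), Cyp3a59 (chr5:146079008-146079307, plus strand) and Cyp3a13 (chr5:137921570-137921869, minus strand) read as follows.
Cyp3a11: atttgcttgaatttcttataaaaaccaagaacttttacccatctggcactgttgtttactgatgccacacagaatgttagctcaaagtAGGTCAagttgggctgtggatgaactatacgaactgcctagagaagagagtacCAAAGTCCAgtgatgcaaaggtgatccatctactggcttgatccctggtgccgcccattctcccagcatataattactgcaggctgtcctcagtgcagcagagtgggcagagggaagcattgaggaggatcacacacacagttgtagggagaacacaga
Cyp3a44: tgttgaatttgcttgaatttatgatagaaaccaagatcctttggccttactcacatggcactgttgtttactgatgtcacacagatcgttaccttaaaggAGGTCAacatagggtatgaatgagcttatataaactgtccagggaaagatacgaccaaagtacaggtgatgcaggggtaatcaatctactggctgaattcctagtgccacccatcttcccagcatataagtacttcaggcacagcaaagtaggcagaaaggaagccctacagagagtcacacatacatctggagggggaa
Cyp3a59: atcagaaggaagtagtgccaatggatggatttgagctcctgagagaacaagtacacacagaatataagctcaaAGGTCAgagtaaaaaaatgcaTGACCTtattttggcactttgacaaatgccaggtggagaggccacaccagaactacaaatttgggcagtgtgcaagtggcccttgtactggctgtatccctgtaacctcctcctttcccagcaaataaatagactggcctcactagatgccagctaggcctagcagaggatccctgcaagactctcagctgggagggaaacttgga
Cyp3a13: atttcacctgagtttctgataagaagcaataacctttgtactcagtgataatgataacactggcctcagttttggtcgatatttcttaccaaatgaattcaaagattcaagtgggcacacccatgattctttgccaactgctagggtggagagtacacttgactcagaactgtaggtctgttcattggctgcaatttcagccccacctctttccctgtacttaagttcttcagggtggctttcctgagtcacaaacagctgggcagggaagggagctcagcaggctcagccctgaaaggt
The windows of Cyp3a11, Cyp3a44 and Cyp3a59, the genes higher in C3H, each hold AGGTCA, as do those of Cyp3a25, which did not pass, and Cyp3a57, which was not tested, and that of Cyp3a13 holds neither sequence. The aligned windows of Cyp3a11 and Cyp3a44 were identical at 71.8% of positions, those of Cyp3a25 and Cyp3a59 at 96.3% and those of Cyp3a11 and Cyp3a13 at 57.4%. On either strand, AGGTCA occurred in 28.4% of the 67 P450 genes with a window and in 16.3% of all 32851 windows; CAAAGTCCA occurred in 14.9% and 0.475%, and GCGTG, the core bound by Ahr, in 20.9% and 32.4%. The 10 P450 genes with CAAAGTCCA were all Cyp2c or Cyp3a genes, subfamilies with close copies, so their matches need not be independent. Among tested genes with a window, AGGTCA was in 4 of 9 higher in C3H, 1 of 7 lower and 1 of 19 not passing. The 4 higher genes were Cyp2j5 and, from the same gene cluster, Cyp3a11, Cyp3a44 and Cyp3a59. Of the 32 genes with a window that were not tested, 13 held AGGTCA. A P450 gene counted if any of its windows held the sequence, whereas the share over all windows counted each window. These matches describe letters in the windows of this build and do not show binding. No C3H sequence was examined. No match was seen to overlap another in the sequences printed.

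In the Cyp2c subfamily, which includes arachidonic acid epoxygenases and drug oxidases, Cyp2c29 had the largest fold change of all 40 genes. It stood at 2.18, 2.42, 1.53 and 3.79 CPM in C3H 1, 3, 4 and 5, against 23.2, 17.2, 22.6 and 68.6 CPM in B6 2, 3, 4 and 5. All C3H libraries were low, and among the B6 libraries B6 5 stood far above the other 3. The fold change was 13.3-fold lower in C3H (log2 -3.74 ± 0.46 SE, adjusted p = 1.48e-04, edgeR). Without B6 5 the log2 value was -3.09 (adjusted p = 2.20e-05, edgeR), and without the 4 pancreas-rich libraries it was -4.62. Cyp2c29 encodes an enzyme that is abundant in mouse liver; the hepatocyte marker sum, given above, overlapped between the strains, and its part in the Cyp2c29 values was not tested.

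Cyp2c67 and Cyp2c68 are neighbours on chromosome 19 and moved in opposite directions. Cyp2c67 had 1.96, 3.07, 2.28 and 3.68 CPM in C3H libraries, against 0.877, 0.662, 0.943 and 0.780 CPM in B6 libraries, which is 3.35-fold higher in C3H (log2 1.74 ± 0.22 SE, adjusted p = 2.04e-04, edgeR). Cyp2c68 had 66.9, 82.5, 88.1 and 103 CPM in C3H libraries, against 128, 119, 130.0 and 126 CPM in B6 libraries (log2 -0.56 ± 0.12 SE, adjusted p = 0.00529, edgeR). The values of the strains were separate for both genes. These genes are close copies, with 23.7% of the 100-base windows of Cyp2c67 and 19.8% of those of Cyp2c68 found also in each other, in Cyp2c40 or in Cyp2c69, so how their reads were divided is uncertain. Their start regions, Cyp2c67 at chr19:39648993-39649292 and Cyp2c68 at chr19:39741052-39741351 (RefSeq, GRCm38.p6, both minus strand), are shown because both hold the Hnf4 type sequence CAAAGTCCA, in capitals, while the genes moved apart.
Cyp2c67: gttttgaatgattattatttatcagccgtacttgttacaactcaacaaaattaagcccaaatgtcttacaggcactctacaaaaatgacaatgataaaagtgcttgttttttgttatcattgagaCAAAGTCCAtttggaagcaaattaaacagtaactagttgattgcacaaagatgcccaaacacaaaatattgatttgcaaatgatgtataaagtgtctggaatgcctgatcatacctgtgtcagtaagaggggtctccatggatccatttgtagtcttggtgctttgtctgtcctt
Cyp2c68: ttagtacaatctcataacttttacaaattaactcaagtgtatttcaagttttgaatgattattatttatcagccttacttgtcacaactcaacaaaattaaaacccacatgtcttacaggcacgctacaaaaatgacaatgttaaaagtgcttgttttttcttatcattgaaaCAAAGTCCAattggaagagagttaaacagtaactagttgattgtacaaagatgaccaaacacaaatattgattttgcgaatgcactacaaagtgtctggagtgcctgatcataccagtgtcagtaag
The windows were identical at 65.9% of aligned positions.

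The most abundant Cyp2c gene did not pass. Cyp2c65, an enzyme of the mouse gut, averaged 435 ± 116 CPM in C3H and 384 ± 30.7 CPM in B6 (SD, n = 4 each; log2 0.18 ± 0.17 SE, adjusted p = 0.507, edgeR). Its gut-expressed neighbours Cyp2c55 and Cyp2c66 averaged 103 ± 24.2 and 125 ± 39.9 CPM in C3H, against 109 ± 45.5 and 91.7 ± 30.1 CPM in B6, and did not pass either. The sum of the 15 Cyp2c genes was 768 ± 195 CPM in C3H and 760.1 ± 126 CPM in B6 (SD, n = 4 each), a log2 difference of 0.02 ± 0.18 (SE). In gene order on chromosome 19, Cyp2c29 lies between Cyp2c66 and Cyp2c38, neither of which passed.

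**Figure D3:**
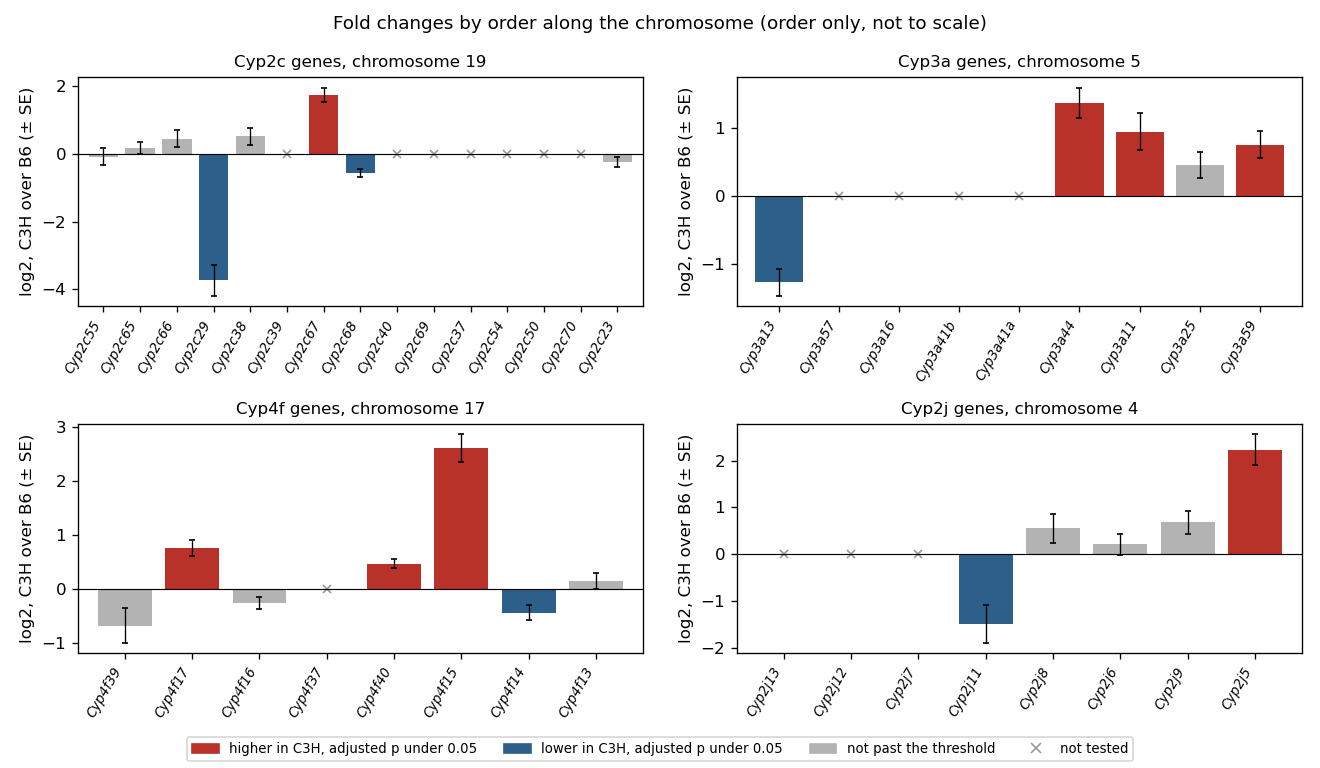
Log2 fold change of C3H over B6 with 1 SE (vertical axes) for the Cyp2c, Cyp3a, Cyp4f and Cyp2j genes in their order along chromosomes 19, 5, 17 and 4, in order only and not to scale; red is higher and blue lower in C3H at an adjusted p under 0.05, grey did not pass, and crosses mark genes that were not tested. Genes that passed in opposite directions stand side by side for Cyp2c67 and Cyp2c68 (1.74 and -0.56) and for Cyp4f15 and Cyp4f14 (2.61 and -0.44).

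Among the tested genes, the largest increases were those of Cyp4a10 and Cyp4f15, of the fatty acid hydroxylase family 4. Cyp4a10, an omega-hydroxylase of fatty acids and a classic target of the receptor Ppara, stood at 21.0, 23.1, 15.4 and 42 CPM in C3H 1, 3, 4 and 5, against 3.64, 3.82, 4.69 and 4.44 CPM in B6 2, 3, 4 and 5. Every C3H library was far above the B6 libraries, and C3H 5 was highest. Cyp4a10 was 6.09-fold higher in C3H (log2 2.61 ± 0.27 SE, adjusted p = 4.04e-05, edgeR), and the log2 value was 1.99 without the 4 pancreas-rich libraries. Of its 100-base windows 12.2% are shared with other genes, Cyp4a31 and Cyp4a32 among them. Cyp4a31 was too scarce to test, with 33 counts over the C3H libraries and 4 over the B6 libraries, a library-scaled ratio of 8.57 (95% counting interval 3.05 to 33.3), while Cyp4a32 had 6 counts in C3H and 23 in B6. Cyp4a14, another Ppara target of the subfamily, had 0 counts in all 8 libraries.

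The Cyp4f enzymes oxidise leukotriene B4, other eicosanoids and long-chain fatty acids. Cyp4f14, a leukotriene B4 hydroxylase and the most abundant of them, stood at 835, 999.6, 1106 and 1317 CPM in C3H 1, 3, 4 and 5, against 1428, 1525, 1367 and 1456 CPM in B6 2, 3, 4 and 5. The C3H values were spread and lay below the B6 values, with C3H 5 close to the lowest B6 library. Its log2 fold change was -0.44 ± 0.14 (SE; adjusted p = 0.0459, edgeR), and this call was lost when any single library other than C3H 5 was left out (adjusted p 0.0581 to 0.141, edgeR) and without the 4 pancreas-rich libraries (adjusted p = 0.250). Per exon length, Cyp4f14 held 13.5% ± 0.833 of the P450 RNA of these families in C3H and 17.8% ± 2.05 in B6 (SD, n = 4 each).

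Cyp4f15, next to Cyp4f14 on chromosome 17, went the other way from a low level. It had 3.04, 4.47, 3.58 and 6.98 CPM in C3H libraries, against 0.664, 0.662, 0.739 and 0.855 CPM in B6 libraries. The groups were far apart, and Cyp4f15 was 6.11-fold higher in C3H (log2 2.61 ± 0.26 SE, adjusted p = 3.23e-05, edgeR), with no 100-base window shared with another gene for it or for Cyp4f14. Cyp4f40 had 65.3, 63.7, 55.3 and 56.4 CPM in C3H libraries, against 44, 39.6, 43.9 and 46.3 CPM in B6 libraries (log2 0.47 ± 0.09 SE, adjusted p = 0.00247, edgeR). Cyp4f17 had 1.77, 2.36, 2.02 and 2.20 CPM in C3H libraries, against 1.28, 1.18, 1.31 and 1.17 CPM in B6 libraries (log2 0.76 ± 0.15 SE, adjusted p = 0.00359, edgeR). Neither gene overlapped between the strains; without the 4 pancreas-rich libraries the adjusted p was 0.154 for Cyp4f40 and 0.208 for Cyp4f17. Cyp4f18, a leukotriene B4 hydroxylase of neutrophils that lies on chromosome 8 outside the cluster, had 2.73, 3.32, 2.53 and 3.09 CPM in C3H libraries, against 4.38, 5.71, 5.75 and 6.58 CPM in B6 libraries. All C3H values were lower (log2 -0.94 ± 0.15 SE, adjusted p = 8.09e-04, edgeR). The leukocyte marker sum was lower in every C3H library too, as given above, through Ptprc (49.9 ± 2.40 CPM in C3H and 67.4 ± 5.93 CPM in B6) and the T cell gene Cd3e (8.77 ± 1.89 CPM in C3H and 19.4 ± 2.43 CPM in B6). The myeloid markers did not run that way, with Cd68 at 10.6 ± 0.549 CPM in C3H and 8.10 ± 1.55 CPM in B6 and Itgax at 33.3 ± 1.28 CPM in C3H and 28.6 ± 3.80 CPM in B6 (SD, n = 4 each). The neutrophil gene S100a8 was too scarce to test, at 0.0232 CPM in C3H and 0.0804 CPM in B6, and the part of leukocytes in the Cyp4f18 difference was not tested.

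The sum of the 9 Cyp4f genes, in which Cyp4f14 dominates, was 1379.9 ± 242 CPM in C3H and 1766 ± 69.1 CPM in B6 (SD, n = 4 each), with each C3H value below each B6 value (log2 -0.36 ± 0.14 SE). Cyp4f16 did not pass, at 167 ± 27 CPM in C3H and 199.7 ± 11.8 CPM in B6 (log2 -0.26 ± 0.11 SE, adjusted p = 0.140, edgeR). Cyp4v3, whose human counterpart hydroxylates fatty acids, averaged 913 ± 142 CPM in C3H and 888 ± 149 CPM in B6 (log2 0.04 ± 0.15 SE, adjusted p = 0.886, edgeR). Cyp4b1 averaged 132 ± 26.3 CPM in C3H and 134 ± 19.3 CPM in B6 (log2 -0.03 ± 0.15 SE, adjusted p = 0.921, edgeR). Cyp4f16 passed when C3H 5 was left out (log2 -0.36, adjusted p = 0.0278, edgeR), while Cyp4v3 and Cyp4b1 had values that overlapped widely between the strains.

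**Figure D4:**
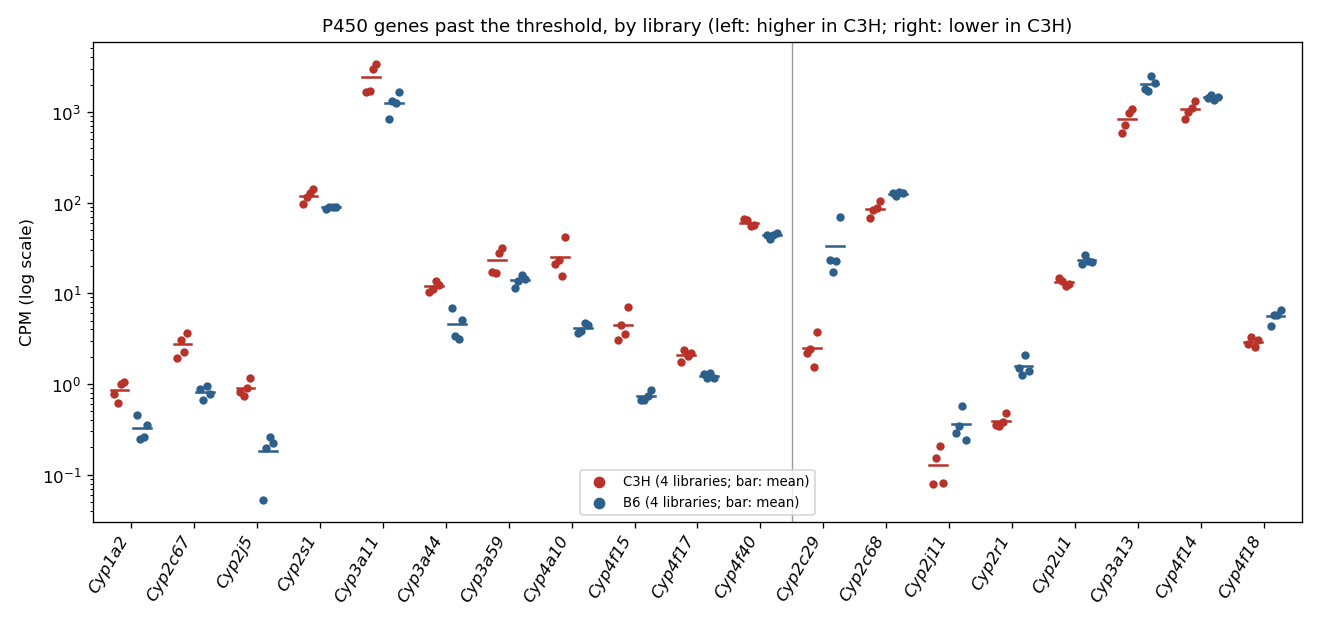
Level in CPM on a log scale (vertical axis) of the 19 P450 genes that passed, as points for each library with the mean as a bar, C3H in red left of B6 in blue for every gene; the 11 genes left of the grey line were higher and the 8 right of it lower in C3H. No gene has overlapping values, and Cyp2c29 shows the widest gap, with 1.53 to 3.79 CPM in C3H and 17.2 to 68.6 CPM in B6.

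Among the remaining genes of families 1 and 2, the vitamin D enzyme and several scarce genes differed. Cyp2r1, the microsomal 25-hydroxylase of vitamin D, had 0.353, 0.346, 0.384 and 0.483 CPM in C3H libraries, against 1.51, 1.27, 2.07 and 1.41 CPM in B6 libraries. The C3H values were tightly grouped and well below those of B6, a 4.04-fold lower level (log2 -2.01 ± 0.22 SE, adjusted p = 5.99e-05, edgeR). Cyp2u1, a hydroxylase of long-chain fatty acids, had 14.9, 13.8, 12 and 12.7 CPM in C3H libraries, against 21.1, 26.5, 22.7 and 22 CPM in B6 libraries (log2 -0.79 ± 0.10 SE, adjusted p = 1.72e-04, edgeR). Its groups were also separate, and 8.59% of its 100-base windows occur in another annotated gene. Cyp2s1, an epithelial P450 that acts on retinoids, had 96.5, 115, 126 and 139.8 CPM in C3H libraries, against 85.8, 89.2, 90.1 and 89.5 CPM in B6 libraries (log2 0.43 ± 0.11 SE, adjusted p = 0.0144, edgeR). The B6 values were nearly equal and the C3H values spread above them, and without the 4 pancreas-rich libraries the adjusted p was 0.376.

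Of the 5 tested Cyp2j genes, which encode arachidonic acid epoxygenases and hydroxylases, 2 scarce members passed, in opposite directions. Cyp2j5 averaged 0.908 ± 0.195 CPM in C3H and 0.183 ± 0.0901 CPM in B6 (SD, n = 4 each; log2 2.23 ± 0.33 SE, adjusted p = 5.35e-04, edgeR). Cyp2j11 averaged 0.129 ± 0.0611 CPM in C3H and 0.362 ± 0.146 CPM in B6 (log2 -1.49 ± 0.40 SE, adjusted p = 0.0202, edgeR). The Cyp2j11 call was lost without C3H 1 (adjusted p = 0.0573, edgeR), C3H 5 (adjusted p = 0.0504) or the 4 pancreas-rich libraries (adjusted p = 0.164), and without B6 4 the gene was too scarce to test. Cyp2j6, with the highest CPM of the subfamily, averaged 566 ± 145 CPM in C3H and 489.7 ± 152 CPM in B6 and did not pass (log2 0.21 ± 0.23 SE, adjusted p = 0.577, edgeR). Cyp2j9 averaged 20.4 ± 4.43 CPM in C3H and 12.7 ± 5.32 CPM in B6 (log2 0.68 ± 0.25 SE, adjusted p = 0.0798, edgeR), and passed when B6 4 was left out (0.00270), with library totals (0.0371), under enterocyte marker scaling (0.0152), with no filter (0.0450) and with DESeq2 (0.0277). Without the 4 pancreas-rich libraries its log2 value was 0.07 (adjusted p = 0.914, edgeR).

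Of the Ahr-regulated pair Cyp1a1 and Cyp1a2, which oxidise polycyclic aromatic compounds, the scarcer gene passed. Cyp1a2 averaged 0.861 ± 0.200 CPM in C3H and 0.327 ± 0.0959 CPM in B6 (SD, n = 4 each; log2 1.39 ± 0.26 SE, adjusted p = 0.00299, edgeR). Cyp1a1 had 85.3, 13.2, 37.2 and 33.0 CPM in C3H 1, 3, 4 and 5, against 24.0, 30.3, 25.6 and 27.4 CPM in B6 2, 3, 4 and 5. C3H 1 was the highest library and C3H 3 the lowest, on either side of the B6 values (log2 0.65 ± 0.41 SE, adjusted p = 0.305, edgeR). The log2 value was 0.03 without C3H 1. Without C3H 3 the adjusted p was 0.0450 (edgeR, log2 0.93), and without the 4 pancreas-rich libraries it was 0.0368 (log2 1.20).

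Further abundant or inducible genes did not pass. Cyp2b10, the standard target of CAR, averaged 711 ± 175 CPM in C3H and 528 ± 112 CPM in B6 (SD, n = 4 each; log2 0.43 ± 0.19 SE, adjusted p = 0.138, edgeR), and passed when B6 5 was left out (0.0481) and under enterocyte marker scaling (0.0313). Cyp2d26, of a subfamily that oxidises basic drugs, averaged 586 ± 156 CPM in C3H and 617 ± 66.6 CPM in B6 (log2 -0.07 ± 0.17 SE, adjusted p = 0.812, edgeR). Cyp2e1, which oxidises ethanol, had 0.569, 48.4, 2.23 and 2.90 CPM in C3H 1, 3, 4 and 5, against 2.63, 3.33, 2.38 and 2.25 CPM in B6 2, 3, 4 and 5. Only C3H 3 was high, and the fitted log2 value of 2.36 ± 1.05 (SE; adjusted p = 0.143, edgeR) became -0.52 ± 0.41 without it and 0.55 with limma-voom. The 5 adipose markers summed to 301 CPM in C3H 3, against 123 to 171 CPM in the other C3H libraries and 122 to 165 CPM in the B6 libraries, with Adipoq at 31.5 CPM in C3H 3 and 0 in C3H 1; their part in the Cyp2e1 value was not tested. The log2 values of the 21 genes that did not pass ran from -0.68 to 2.36.

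Of the 42 untested genes, 19 had at least 10 counts over the 8 libraries, 9 had 1 to 9 and 14 had none. Cyp2d34 had 157 counts in C3H libraries and 1 in B6 libraries, for a library-scaled ratio of 163 (95% counting interval 28.9 to 6484), but 132 of the 157 came from C3H 5. Cyp2c69 had 4 counts in every C3H library and 0 in every B6 library, at least 5.54-fold higher in C3H at a floor of 3 counts over the B6 libraries. Cyp2a5 had 41 counts in C3H and 9 in B6, Cyp2j13 30 and 10, Cyp3a41a 22 and 4, Cyp3a16 21 and 8, Cyp2c39 18 and 4, and Cyp2c40 18 and 5. Cyp2ab1 had 2 counts in C3H and 12 in B6. For the other 8 the 95% counting interval of the ratio included equal levels, from Cyp2f2 with 47 in C3H and 31 in B6 and Cyp2c70 with 36 and 42, through Cyp3a57 with 32 and 22, Cyp2d10 with 28 and 35, Cyp2w1 with 14 and 17 and Cyp4f37 with 13 and 13, to Cyp2j12 with 7 and 8 and Cyp4x1 with 6 and 5. These intervals and the floor take in counting error and nothing else. Of the Cyp3a41a windows 90.8% and of the Cyp2c69 windows 35.4% also occur in other genes, so these counts depend on how shared reads were assigned.

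The genes that regulate and serve these enzymes were read from lists of known members, whose counts stand beside 11.3% higher and 10.1% lower in C3H among all tested genes. Of 26 tested regulators 9 rose in C3H and 2 fell, Cdx2 (log2 -0.31 ± 0.09 SE) and Ppard (log2 -0.44 ± 0.14 SE), with a median log2 of 0.21 over the list. Nr0b2 and Nr1h4, the bile acid receptor pathway's repressor and receptor, had log2 fold changes of 1.61 ± 0.14 and 1.40 ± 0.13 (SE; adjusted p = 1.28e-05 and 1.74e-05, edgeR). Nfe2l2, the regulator of the oxidative stress response, and Hlf, a clock-output factor, had log2 values of 0.70 ± 0.09 and 1.07 ± 0.18. The 15 others did not pass, among them the PXR gene Nr1i2, at 142 ± 26.4 CPM in C3H and 116 ± 19.8 CPM in B6 (SD, n = 4 each; log2 0.30 ± 0.15 SE, adjusted p = 0.198, edgeR). The CAR gene Nr1i3 averaged 135 ± 21.5 CPM in C3H and 79.7 ± 12 CPM in B6 (log2 0.76 ± 0.13 SE, adjusted p = 0.00187, edgeR). Ahr averaged 36.8 ± 2.63 CPM in C3H and 26.3 ± 5.34 CPM in B6 (log2 0.48 ± 0.13 SE, adjusted p = 0.0239, edgeR). It did not pass without C3H 3, C3H 4, C3H 5 or B6 3, nor without the 4 pancreas-rich libraries. Neither Cdx2 nor Ppard passed without C3H 1, C3H 3, B6 3 or B6 5 or under enterocyte marker scaling, while Ppard alone passed without C3H 4 and Cdx2 alone without B6 4. Without the 4 pancreas-rich libraries 2 regulators, Nr0b2 and Nr1h4, rose and 0 fell at the threshold (edgeR), 7 having an unadjusted p under 0.05. Nr1i3, Nfe2l2 and Hlf did not pass there.

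Most tested targets of Ppara outside the P450 genes rose. Of 15 tested, 12 were higher and 1 lower in C3H, with a median log2 of 0.67 against 0.03 over all tested genes. Acot1 and Acot2, thioesterases of fatty acyl-CoA, had log2 values of 2.08 ± 0.20 and 1.53 ± 0.17, and the peroxisomal thiolase Acaa1b had 1.47 ± 0.17 (SE). Vnn1, a pantetheinase and also a Ppara target, fell by 1.31 ± 0.13 on the log2 scale. Ppara itself averaged 73.4 ± 15.4 CPM in C3H and 34 ± 16 CPM in B6 (SD, n = 4 each; log2 1.11 ± 0.27 SE, adjusted p = 0.0134, edgeR), with B6 4 at 57.4 CPM overlapping the C3H libraries. The Ppara gene did not pass with the robust dispersion option of edgeR, nor without the 4 pancreas-rich libraries. Without any single library 10 to 11 of the 15 targets rose. When the 4 pancreas-rich libraries were left out, 4 targets rose and 1 fell, with a median log2 of 0.54.

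Of 8 tested PXR and CAR targets outside the P450 genes, 4 rose and 1 fell in C3H, with a median log2 of 0.55; without the 4 pancreas-rich libraries 2 rose and 1 fell. Abcc3, an exporter of conjugates, Ces2a, a carboxylesterase, and Ugt1a1, a glucuronosyltransferase, had log2 values of 0.96 ± 0.16, 1.33 ± 0.24 and 0.54 ± 0.12, while Gsta1, a glutathione transferase, fell by 1.46 ± 0.21 (SE, log2 scale). Of 4 tested Ahr targets, Ugt1a6a and Nqo1 rose, with log2 values of 1.15 ± 0.15 and 0.54 ± 0.11 (SE), and Ahrr and Tiparp did not pass (log2 -0.06 ± 0.17 and -0.00 ± 0.13); without the 4 pancreas-rich libraries 1 of the 4 rose. Of 14 partner and haem genes 4 rose, namely Ephx1, the microsomal epoxide hydrolase (log2 1.57 ± 0.27 SE, adjusted p = 0.00143, edgeR), Cyb5b (0.48 ± 0.13), Ppox (0.28 ± 0.08) and Pgrmc2 (0.31 ± 0.10). This count depended on the libraries. Of the 14 genes 1 rose without C3H 3, B6 2 or B6 5, and 2 rose without C3H 5, B6 3 or B6 4. Without the 4 pancreas-rich libraries 1 rose. Among all tested genes, 1561 of 18148 were higher without C3H 3, 1745 of 18376 without B6 2 and 1824 of 18273 without B6 5. Without the 4 pancreas-rich libraries 853 of 18560 were higher. In a list of 14 genes, a count of 1 is near these shares. Por, the electron donor of these P450 enzymes, averaged 489.8 ± 125 CPM in C3H and 392 ± 72.9 CPM in B6 and did not pass (log2 0.32 ± 0.18 SE, adjusted p = 0.257, edgeR).

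**Figure D5:**
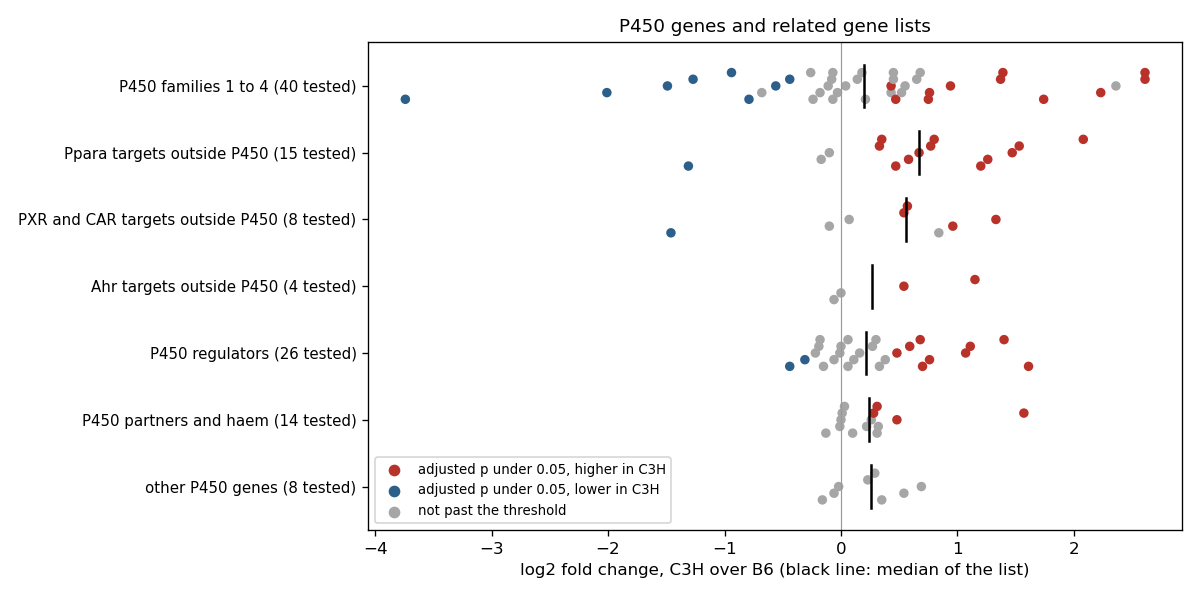
Log2 fold change of C3H over B6 (horizontal axis) of the 40 tested P450 genes and of the tested genes of 6 related lists (rows), red for higher and blue for lower in C3H at an adjusted p under 0.05, grey for genes that did not pass; the black line is the median of each list. The P450 genes spread from -3.74 to 2.61 around a median of 0.19, and 12 of the 15 Ppara targets stand to the right in red, with a median of 0.67.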

How the data were processed

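Jejunum RNA of 4 C3H and 4 B6 libraries was compared. Reads were aligned with STAR 2.7.9a to GRCm39 and counted with HTSeq 2.0.2, per the submitters' processing notes, from an Illumina stranded mRNA preparation of RNA with an integrity number above 7, per the labels. The deposited table holds raw counts per gene identifier; which annotation release and strand setting were used is not given in these sources. Symbols, gene order and exon lengths came from GENCODE M21 (GRCm38): 51948 identifiers had a symbol and 4993 had none. All value columns were matched to a sample by their label. Totals were 37205896 to 58251332 counts and TMM factors 0.915 to 1.13.

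From these counts, edgeR 4.0.16 under R 4.3.3 was fitted over all genes passing filterByExpr (minimum count 10) with TMM scaling and the quasi-likelihood F test, adjusted by Benjamini-Hochberg over 18025 genes, threshold 0.05; standard errors were back-calculated from the F statistic. Subfamily sums were fitted in the same way and are given with no p-value. Shares per exon length divide each CPM by the annotated exon length. Windows of 100 bases were compared over GENCODE M21 transcripts. Promoter windows are RefSeq's (GRCm38.p6), and no C3H sequence was examined for them. The method was tested on simulated data. Alternatives were other scalings, filters and tools (DESeq2 1.42.0, limma-voom with limma 3.58.1), a threshold of 0.01, a 2-fold minimum, a replicate block, each library left out, and the 4 pancreas-rich libraries left out; scaling to enterocyte markers was added after seeing the data.

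The genes, lists and alternatives were chosen with earlier results of these data known. Named were all genes past the threshold, the 8 most abundant that did not pass, untested genes with at least 10 counts, and up to 4 genes per list by adjusted p. Cyp1a1, Cyp2c38, Cyp2c55, Cyp2c66, Cyp2e1, Cyp2j9, Cyp4a14, Nr1i2, Nr1i3, Ahr, Ppara, Cdx2, Ppard, Ahrr, Tiparp, Por, Adipoq and the leukocyte, endothelial and regional markers were named after their values were seen.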

Additional observations from a re-analysis of the deposited data

Results flagged for a closer look

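In 5 of 80 sets of 4 values (40 tested genes in each strain) 1 library stood apart from the other 3 by more than Dixon's 95% critical value for 4 samples; chance gives about 1 in 20 sets. Cyp2e1 was at 48.4 CPM in C3H 3, against 0.569 to 2.90 CPM in the other C3H libraries. Cyp2c29 was at 68.6 CPM in B6 5, against 17.2 to 23.2 CPM in the other B6 libraries. Cyp2d22 was also highest in B6 5, at 68.5 CPM, against 54.1 to 56.4 CPM in the other B6 libraries. Cyp2d26 was lowest in B6 2, at 518 CPM, against 639 to 657 CPM in the other B6 libraries. Cyp2a12 was lowest in B6 2 as well, at 0.0797 CPM, against 0.353 to 0.370 CPM in the other B6 libraries.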

How the results depend on the processing

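No P450 gene that passed changed direction under any alternative that was run. With 11 genes higher and 8 lower in C3H, the count higher was 7 with a minimum mean of 100 counts. There 6 of the 19 genes were too scarce to be tested, and 21.9% of all tested genes passed. It was 7 without the 4 pancreas-rich libraries, where 9.02% of all tested genes passed. At least 2-fold changes numbered 6 higher and 4 lower, where 7.86% of all tested genes passed both thresholds. Leaving out single libraries gave 9 to 12 higher and 6 to 8 lower, where 17.1% to 20% of all tested genes passed. DESeq2 gave 12 higher and 8 lower, no filter 15 and 8, library totals 13 and 8, and enterocyte marker scaling 14 and 8. In the same order, 23.8%, 13.3%, 20% and 15.4% of all tested genes passed. A threshold of 0.01 gave 8 and 6, where 2326 of 18025 genes passed. With the replicate number as a block, the 6 libraries whose numbers both strains have gave 12 higher and 7 lower. With no block they gave 11 and 6. Of all tested genes 16.1% passed with the block and 17.8% with no block. With the block Cyp4f14 had an adjusted p of 0.170 (edgeR) and Cyp2c66 passed. Deviations of same-numbered libraries from their strain means had correlations of 0.00576, 0.18036 and -0.05175, and the numbers were not taken as pairs. So few correlations cannot tell whether same-numbered libraries shared a cage or a run. Sums over subfamilies stood in for the genes only as values, with no test. Genes under about 1 CPM rest on few reads, and 42 genes were too scarce to test.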

Other observations

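The P450 genes outside families 1 to 4, with Tbxas1 and Ptgis, numbered 20, of which 8 were tested and 0 passed by edgeR or DESeq2, with 1 at an unadjusted p under 0.05 by each tool. Their median log2 fold change of C3H over B6 was 0.26. Cyp27a1, the sterol 27-hydroxylase with the highest CPM of them, averaged 97.4 ± 18.0 CPM in C3H and 76.5 ± 32.9 CPM in B6 (SD, n = 4 each; log2 0.35 ± 0.25 SE, adjusted p = 0.370, edgeR); it passed without B6 4 (1 of the 8 genes). Cyp26b1, a retinoic acid hydroxylase, had 19.5 CPM in C3H 1 and 3.66 to 6.24 CPM in the other C3H libraries, against 3.25 to 8.31 CPM in the B6 libraries (log2 0.69 ± 0.51 SE, adjusted p = 0.390, edgeR). Cyp27b1, the vitamin D 1-alpha-hydroxylase, was too scarce to test, at 0.0806 to 0.236 CPM in C3H and 0 to 0.0266 CPM in B6, with no overlap.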
